A study of Mus musculus with 2 samples.

Results

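The nuclear genes that encode respiratory complex III, cytochrome c and ATP synthase were described in heart tissue. Members were all genes with a symbol beginning Uqcr or Atp5 and at least 1 transcript annotated as protein coding, together with Cyc1 and Cycs. The choice used names and annotation, not measured levels. It gave 28 gene entries under 27 symbols among 55536 annotated genes. Of these, 9 encode complex III, 1 encodes cytochrome c, 16 encode subunits of ATP synthase and 1, Atp5s, encodes the associated factor B. The remaining entry is a second one named Atp5o, on chromosome 16 from 91684398 to 91926982, which overlaps the main Atp5o gene (91925214 to 91931687) on the same strand and held 0 and 10.8 expected counts.

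The samples were 2 libraries of total RNA from heart tissue of adult males, 8 to 10 months old, of the cross labelled 5xFAD/CAST. 5xFAD mice carry transgenes driven by the neuronal Thy1 promoter and serve as a model of amyloid disease in the brain. CAST is an inbred strain derived from wild mice. The labels do not give the transgene status of each animal. Both libraries form 1 group, so there was no comparison of conditions, and no test was made. They carry the labels of biological replicates 1 and 2 and come from separate tissue samples with a common donor identifier, so each SD given here (n = 2) measures the spread between these samples and may be partly technical.

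Complex III takes electrons from ubiquinol and passes them to cytochrome c, moving protons across the inner mitochondrial membrane. Cytochrome c is the small soluble protein that carries those electrons on to complex IV. ATP synthase uses the proton gradient to make ATP: protons turn a ring of c subunits in the membrane, the central stalk turns with it, and the catalytic F1 head makes ATP while a peripheral stalk holds the head still. Heart muscle is rich in mitochondria and draws most of its ATP from this pathway.

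Depth was 39819960 and 37060119 expected counts in library 1 and library 2, of which the members held 502383 and 477448. All 7 heart muscle genes listed as markers (among them Myl2, Myh6, Actc1 and Tnnt2) were above 100 TPM in both libraries, and the 3 T cell markers were under 1 TPM. The 3 genes taken as marks of the group stood high: Atp5b ranked 1, Atp5a1 ranked 2 and Uqcrc1 ranked 6 among the 28 entries. These marks were listed with earlier results of these data known, so their ranks are a description and not a check. Fewer cells of a type and less RNA per cell cannot be told apart in such bulk tissue.

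Levels are given in TPM, a scale of transcript abundance that divides counts by transcript length and so allows genes to be compared. A pair of quantifications was deposited for each library, and levels and ranks are those of the first unless the second is named. Of the 28 entries, 24 were at 100 TPM or more in both libraries, against 2.12% of the 22015 nuclear protein-coding genes. Together the members held 5.10% and 5.12% of the TPM that all nuclear protein-coding genes held (5.11% ± 0.016, SD). On the scale of expected counts, without division by length, they held 2.37% ± 0.022. Complex III held 1.48% ± 0.019 of the TPM and ATP synthase 3.61% ± 0.0039. The 4 entries under 100 TPM were Cycs, Atp5g2, Atp5s and the second Atp5o entry.

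**Figure D1:**
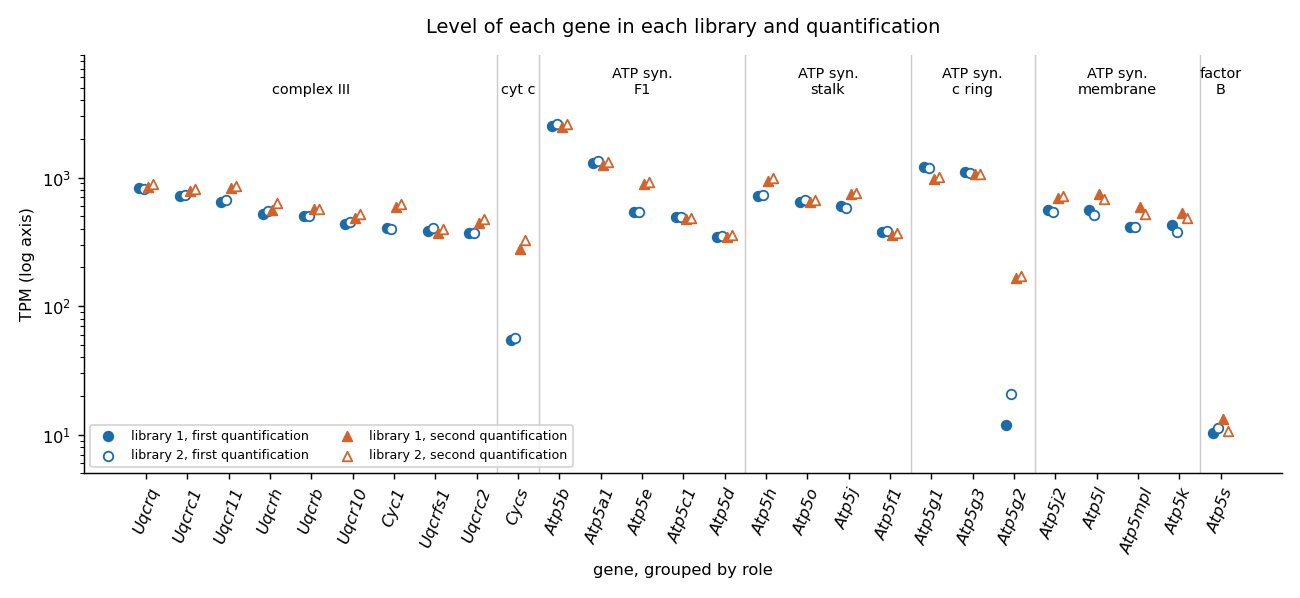
TPM on a log axis for 27 genes, grouped by role; circles are the first deposited quantification, triangles the second, filled symbols library 1 and open symbols library 2. Most genes sit between 348 and 2550 TPM with the libraries close together, while Cycs and Atp5g2 are the genes whose circles lie far below their triangles.

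The 9 complex III genes lay within a narrow range. Uqcrq, a small subunit that helps anchor cytochrome b, was the highest at 825 and 819 TPM in libraries 1 and 2 (822 ± 3.83). Uqcrc1, a core subunit on the matrix side, had 714 and 735 TPM (724 ± 14.7). Uqcrc2, its core partner, was the lowest with 373 and 369 TPM (371 ± 3.08), although in the second quantification it had 458 ± 22.6 TPM and Uqcrfs1 was the lowest at 385 ± 16.7 TPM. The libraries of Uqcrc1 and Uqcrc2 did not overlap, and Uqcrc1 was 1.95 ± 0.056 times Uqcrc2, although the complex holds these core proteins in equal numbers. In the second quantification it was 1.76 ± 0.041 times Uqcrc2. The ratio of the highest to the lowest gene of the complex was 2.21 ± 0.0081.

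The redox subunits were near the lower end in the first quantification. Cyc1, cytochrome c1, had 407 and 399 TPM (403 ± 5.57), and Uqcrfs1, the Rieske iron-sulfur protein, had 384 and 402 TPM (393 ± 12.2). The libraries of these genes overlapped there. In the second quantification they did not, since Cyc1 had 588 and 628 TPM and Uqcrfs1 had 373 and 397 TPM. Cyc1 was near the middle of the complex there, where the complex III medians were 570 and 628 TPM in libraries 1 and 2. Among the small accessory subunits, Uqcr11 had 644 and 671 TPM (658 ± 19.3). Uqcrh, the hinge protein that contacts cytochrome c1, had 522 and 545 TPM (533 ± 16.4). Uqcrb, which binds near the ubiquinone site, had 504 and 506 TPM (505 ± 1.58), and Uqcr10 had 439 and 455 TPM (447 ± 11.3). Every one of the 9 was above 100 TPM in both libraries.

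In the F1 head, the subunits present in several copies stood above those present once. Atp5b, the catalytic beta subunit, had 2510 and 2591 TPM. Atp5a1, the alpha subunit that alternates with beta in the head, had 1297 and 1336 TPM (1317 ± 28.1). Atp5b was 1.94 ± 0.0022 times Atp5a1, and 1.96 ± 0.00073 times in the second deposited quantification, although the head holds alpha and beta in equal numbers. The gap was smaller for the leading coding transcripts alone, at 1905 ± 9.38 TPM for Atp5b-201 and 1293 ± 17.7 for Atp5a1-201. It was also smaller on expected counts, with 120964 and 115353 for Atp5b and 101102 and 97302 for Atp5a1. Atp5b and Atp5a1 were the highest genes of the group, and their libraries did not overlap.

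The central stalk genes were lower. Atp5e, epsilon, had 539 and 540 TPM (540 ± 0.78), Atp5c1, gamma, had 497 and 495 TPM (496 ± 1.32), and Atp5d, delta, had 347 and 349 TPM (348 ± 1.70). Atp5b was 5.14 ± 0.13 times Atp5c1 and 7.33 ± 0.13 times Atp5d. The ratio of Atp5b to Atp5e depended on the quantification, at 4.72 ± 0.099 in the first and 2.78 ± 0.032 in the second.

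The peripheral stalk genes spanned a smaller range. Atp5h, subunit d, had 717 and 726 TPM (721 ± 6.03), and Atp5o, the subunit that confers oligomycin sensitivity, had 650 and 673 TPM (662 ± 16.5). Atp5j, coupling factor F6, had 596 and 575 TPM (585 ± 14.8). Atp5f1, subunit b, was the lowest with 377 and 383 TPM (380 ± 4.01). No pair of these 4 genes had overlapping libraries in the first quantification. The order of Atp5o and Atp5j depended on the table, since in the second Atp5j had 739 and 755 TPM and Atp5o 640 and 666 TPM.

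The c ring is built from many copies of a single protein that 3 genes encode. Their products differ in the import signal that is cut off and share the mature part. The leading coding transcripts gave coding sequences of 408, 438 and 423 bases for Atp5g1, Atp5g2 and Atp5g3, and their last 78 codons translated to the same residues in all 3. The 234 bases of those codons, without the stop codon, are shown because they carry 1 protein in 3 spellings. They were read from the GENCODE M21 transcripts of mm10, minus strand in each case, spliced, 5′ to 3′. Capitals mark the 63 positions at which the 3 genes differ.
Atp5g1: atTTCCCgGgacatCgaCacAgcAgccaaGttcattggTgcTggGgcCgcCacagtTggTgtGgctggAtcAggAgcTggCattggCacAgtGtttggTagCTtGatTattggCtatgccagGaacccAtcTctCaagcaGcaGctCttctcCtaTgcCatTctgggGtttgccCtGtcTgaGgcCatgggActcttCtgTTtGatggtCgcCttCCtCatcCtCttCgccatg
Atp5g2: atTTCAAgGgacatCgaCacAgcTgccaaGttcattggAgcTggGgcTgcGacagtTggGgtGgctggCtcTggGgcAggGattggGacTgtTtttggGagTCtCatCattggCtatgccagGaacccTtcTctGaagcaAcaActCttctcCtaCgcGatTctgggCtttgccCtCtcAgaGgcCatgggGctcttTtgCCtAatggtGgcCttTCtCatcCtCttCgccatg
Atp5g3: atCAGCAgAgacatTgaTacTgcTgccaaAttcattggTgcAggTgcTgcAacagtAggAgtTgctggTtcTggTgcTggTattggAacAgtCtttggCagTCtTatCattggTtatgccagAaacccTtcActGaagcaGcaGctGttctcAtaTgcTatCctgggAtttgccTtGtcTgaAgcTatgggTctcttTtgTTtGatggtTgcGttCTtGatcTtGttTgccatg
The longest stretch without a capital is 8 bases. Atp5g1 and Atp5g2 differ at 36 of the positions, Atp5g1 and Atp5g3 at 50, and Atp5g2 and Atp5g3 at 53. The genes lie apart, Atp5g1 on chromosome 11 (96068852 to 96075670), Atp5g2 on chromosome 15 (102662864 to 102672352) and Atp5g3 on chromosome 2 (73908447 to 73911326).

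Atp5g1 and Atp5g3 supplied nearly all of the c subunit transcripts in the first quantification. Atp5g1 had 1199 and 1180 TPM (1190 ± 13.7) and Atp5g3 had 1107 and 1081 TPM (1094 ± 18.2). Atp5g2 had 11.95 and 20.6 TPM (16.3 ± 6.12). As shares of the summed TPM of the 3 genes, Atp5g1 held 51.7% ± 0.016, Atp5g3 47.6% ± 0.26 and Atp5g2 0.709% ± 0.27. Atp5g1 was above Atp5g3 in both libraries here, by 1.09 ± 0.0056 times, but below it in the second quantification, at 0.927 ± 0.019 times, so the order of these genes depended on the table.

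Atp5g2 also moved with the quantification, to 166 and 172 TPM and a share of 7.63% ± 0.11 in the second. Gm10175, a transcribed processed pseudogene on chromosome 7 (23946646 to 23947290, minus strand), matches the Atp5g2 coding sequence at all 438 aligned bases. In the first quantification Gm10175 was given 3861 and 3409 counts and Atp5g2 248.99 and 404.67. In the second it was given 997 and 893 counts and Atp5g2 3449 and 3186. The counts of Atp5g2 with its copies, among which Gm10175 held most, were 4110 and 3814 in the first and 4446 and 4079 in the second. With copies added to all 3 genes, a sum chosen after the data were seen, the count share of Atp5g2 was 8.67% ± 0.039 in the first and 10.0% ± 0.11 in the second.

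The remaining membrane subunits, among them those that join the complex into dimers, had similar levels. Atp5j2, subunit f, had 557 and 539 TPM (548 ± 12.5). Atp5l, subunit g, had 556 and 508 TPM (532 ± 34.3), and Atp5k, subunit e, had 428 and 378 TPM (403 ± 35.4). Atp5mpl, a small proteolipid, had 414 and 410 TPM (412 ± 3.0). All 4 had less TPM in library 2, and the libraries of Atp5k and Atp5l lay farthest apart in the first quantification. In the second quantification Atp5j2 was instead higher in library 2, at 692 and 714 TPM, while Atp5k had 530 and 485 TPM and Atp5l 739 and 677 TPM. Atp5mpl had 593 and 516 TPM there, the widest gap of the 4. Atp5s, factor B, which is not a structural subunit, had 10.3 and 11.4 TPM (10.8 ± 0.76).

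Cycs, the somatic cytochrome c gene on chromosome 6 (50562563 to 50566538, minus strand), had 54.1 and 56.7 TPM (55.4 ± 1.85) in the first quantification. In the second it had 276 and 326 TPM (301 ± 35.7), which is 5.44 times as high. Cyct, the testis form, was at 0.22 and 0.12 TPM. Cycs has a copy annotated as protein coding, Gm10053 on chromosome 19 (24875686 to 24876631, plus strand), which matches its coding sequence at all 315 bases. Gm10053 was given 9218 and 9194 counts against 5205 and 5207 for Cycs in the first quantification, and 6257 and 6115 against 9734 and 9588 in the second. A further copy, Gm10108 on chromosome 5 (13121448 to 13121766, minus strand), has 2 mismatches over 315 bases and held 1261 and 1283 counts in the first and 201.9 and 0 in the second. Cycs with all its copies held 15688 and 15684 counts in the first and 16193 and 15705 in the second.

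A search of the annotated transcripts found 56 copies of the members' coding sequences, defined by at least 90% identity over at least 50% of the coding sequence. They belonged to 15 of the 27 symbols, and 54 were not annotated as protein coding. Of the 56, 33 had no count in either library and 9 reached a mean of 1 TPM. Of the members, 8 shared at least one exact stretch of 100 bases with another gene and 19 shared none. Atp5g2 shared 86.4% of its stretches, Atp5l 61.3%, Atp5g1 57.3%, Atp5h 32.7%, Cycs 24.7%, Atp5o 21.2%, Uqcrb 15.8% and Atp5f1 7.38%.

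The start of the Cycs coding sequence and the end of that of Atp5g1 show how little separates a gene from a copy. The aligned coding bases, 1 to 33 for Cycs and 355 to 408 for Atp5g1, are given on the sense strand of each mm10 transcript, with the differing base in capitals.
Atp5g1: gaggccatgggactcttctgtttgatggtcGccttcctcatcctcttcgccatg
Gm10039: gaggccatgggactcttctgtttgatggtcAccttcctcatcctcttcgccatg
Cycs: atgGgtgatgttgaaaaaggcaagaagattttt
Gm10108: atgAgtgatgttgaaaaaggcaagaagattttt
Gm10039 lies on chromosome 11 (100361716 to 100362126, minus strand) and has 1 mismatch to Atp5g1 over 408 bases. It was given 588 and 505 counts in the first quantification but 0 in both libraries in the second. Gm10250 on chromosome 15 (5120654 to 5121135, minus strand), a copy of Atp5h, was given 2744 and 2452 counts in the first and 2.54 and 0 in the second. Gm10221 on chromosome 5 (24581554 to 24581862, minus strand) equals the 309 coding bases of Atp5l and was given 1654 and 1882 counts in the first and 0 in the second. For these 3 copies the second quantification gave at most 2.54 counts in a library. Gm5436, a copy of Atp5o on chromosome 12 (84258331 to 84258973), went the other way, with 217 and 218 counts in the first and 763 and 742 in the second.

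**Figure D2:**
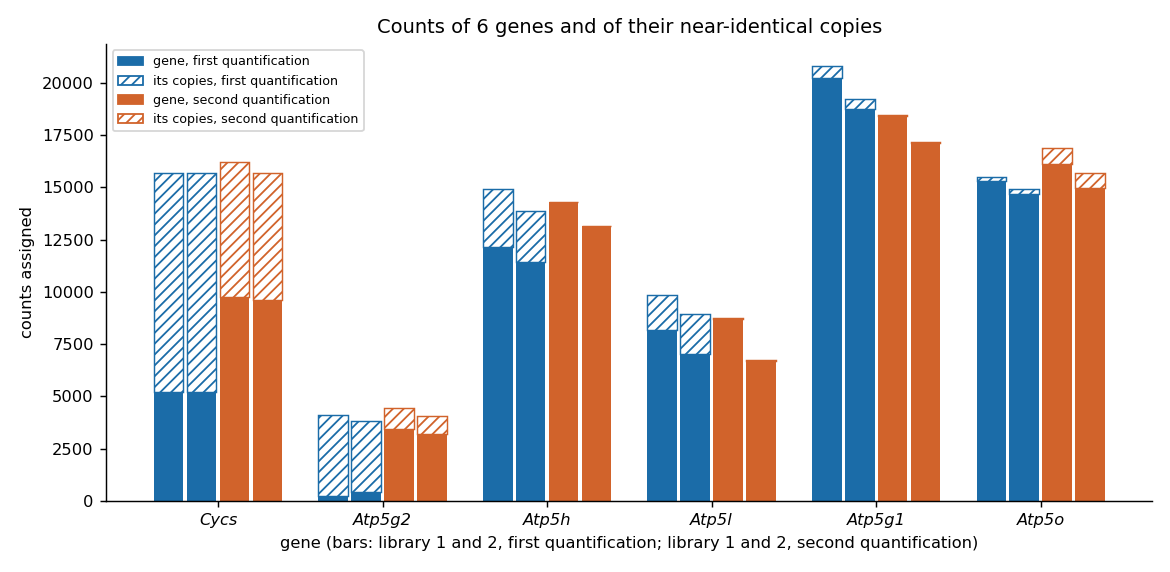
Counts assigned to 6 genes (solid) and to their near-identical copies (hatched), 4 bars per gene for library 1 and library 2 in the first and then the second quantification. The height of the whole bar changes much less than the split within it for Cycs (15688 and 16193 counts in library 1) and Atp5g2 (4110 and 4446 counts in library 1).

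As shares, copies held 91.7% ± 3.22 of the joint counts of Atp5g2 in the first quantification but 22.2% ± 0.37 in the second. For Cycs they held 66.8% ± 0.014 and 39.4% ± 0.67, for Atp5l 19.3% ± 3.14 and 0.193% ± 0.077, and for Atp5h 18.04% ± 0.54 and 0.0089% ± 0.013. The count of the gene alone, first over second, ranged from 0.0985 to 1.10 times among the 8 members with a shared stretch. For gene and copies together it ranged from 0.926 to 1.22 times. The 19 members without a shared stretch ranged from 0.799 to 1.24 times. The deposited posterior SD of the count reached 28.6% of the count for Atp5g2 and was at most 0.0077% of it for any member without a shared stretch. Neither table was made with a known truth, so which split is nearer to the tissue was not tested.

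Across both quantifications, 2 of 27 members differed at least 2-fold in TPM, Atp5g2 and Cycs, against 0.655% of 10985 nuclear protein-coding genes. Members without a shared stretch also stood somewhat higher in the second quantification, with a median log2 ratio of 0.16 against -0.01 over the nuclear protein-coding genes at 1 TPM or more. Atp5e stood out among them, with 540 TPM in the first and 914 ± 23.7 TPM in the second. Cyc1 followed, with 403 and 608 ± 27.98 TPM. Atp5b barely moved, at 0.998 times its first value, nor did Atp5a1 at 0.985 times or Atp5d at 1.01 times. Over the 24 members at 100 TPM or more, the log2 ratio of second to first fell with the length of the gene's transcripts (Spearman's rho -0.52, Pearson's r -0.40). These points share libraries and reads, and no test was made.

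The leading transcript of most members was of the annotated coding kind. The 27 genes have 137 annotated transcripts, 72 of them protein coding. The leading transcript was protein coding for 25 genes in the first quantification, 24 in the second, and it was the same in both libraries and both quantifications for 20 genes. It held over 90% of the gene's TPM for 18 genes in the first, the retained intron of Atp5j among them, but for 12 in the second.

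Atp5j was led throughout by a transcript of another kind. Atp5j-208, annotated as a retained intron, held 92.0% ± 0.50 of its TPM in the first quantification against 76.9% ± 0.34 in the second. Atp5j-201, the leading coding transcript, held 4.61% ± 0.54 and 6.55% ± 0.24. Atp5j-208 nevertheless contains the whole 324-base coding sequence of Atp5j-201, and 23.0% of its 100-base stretches are not in Atp5j-201.

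Cycs was led by different transcripts. Cycs-202, 3123 bases and protein coding, held 96.1% ± 1.14 in the first quantification. Cycs-201, 607 bases and annotated as a retained intron, held 82.2% ± 1.75 in the second. Cycs-201 also contains the whole coding sequence of 315 bases. The TPM of Cycs-202 was almost the same in both, at 53.2 ± 2.41 and 53.4 ± 1.11, and the difference in the gene came from Cycs-201, at 2.17 ± 0.56 in the first and 248 ± 34.6 in the second.

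Other members divided their signal. Atp5b-201, the coding transcript, held 74.7% ± 1.31 of Atp5b in the first and 69.6% ± 1.15 in the second, and the rest lay mainly in the processed transcripts Atp5b-206 and Atp5b-207. Only 5.54% of the 100-base stretches of Atp5b-206 and 4.51% of those of Atp5b-207 are absent from Atp5b-201, so few stretches are particular to these short transcripts. In the other direction, 80.3% of the stretches of Atp5b-201 are absent from Atp5b-206 and 87.2% from Atp5b-207. Atp5f1-203, annotated as subject to nonsense-mediated decay, held 48.2% ± 1.42 of Atp5f1 in the first and 38.9% ± 0.071 in the second. Uqcrh-205, a retained intron without the whole coding sequence, held 51.4% ± 8.03 of Uqcrh in the first and 16.5% ± 18.8 in the second. For Cyc1 the coding transcripts held 82.4% ± 0.047 in the first and 27.9% ± 0.56 in the second. In Atp5g1 the lead passed from Atp5g1-202 to Atp5g1-203, both coding, and in the second quantification Atp5g3-201 was at 0.00016 TPM in library 1 and 738 TPM in library 2, against 847 and 816 TPM in the first.

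**Figure D3:**
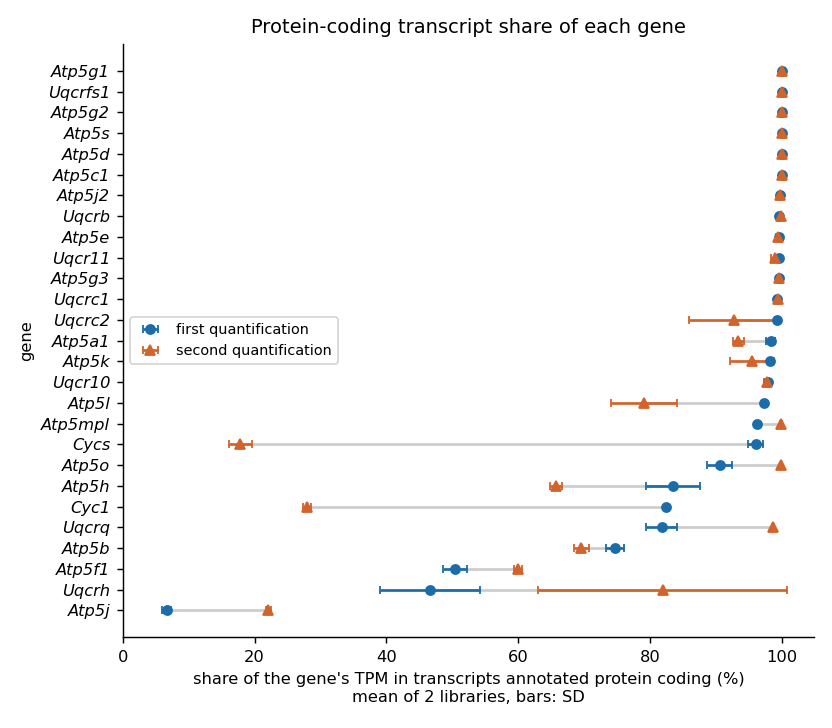
Share of each gene's TPM in transcripts annotated protein coding, mean of 2 libraries with SD bars, in the first (circles) and second (triangles) quantification. Atp5j is low in both, at 6.66% and 22.1%, and Cycs and Cyc1 have the longest lines between the symbols.

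The 2 libraries gave close levels for nearly all members. The log2 ratio of TPM, library 2 over library 1 with a pseudocount of 1, had a median of 0.01 over 27 members at a mean of 1 TPM or more, and -0.01 over the 10986 nuclear protein-coding genes at that level. Values ran from -0.18 for Atp5k to 0.74 for Atp5g2. None of 27 members differed 2-fold, against 0.237% of 10985 genes. In the order of levels, 7 of 27 neighbouring pairs had overlapping libraries, for example Uqcrc1 and Atp5h, or Atp5o and Uqcr11, and the members of such pairs do not differ beyond their spread.

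Counting error is small at this depth, so the count ratio between libraries was also given with its exact (Clopper-Pearson) 95% interval, which covers counting error only. Among 25 members with 1000 counts or more in both libraries, the interval lay above 1 for 11, against 19.4% of the 3392 such genes, and below 1 for 3, against 13.9%. Of the 11, 6 were complex III genes (out of 9), 4 were ATP synthase genes (out of 15) and the last was Cycs. Among the 6, Uqcrc1, Uqcr11, Uqcr10 and Uqcrfs1 were also higher in library 2 on TPM. Cyc1 (407 and 399 TPM) and Uqcrc2 (373 and 369 TPM) were lower there on TPM, so their direction depended on the unit. Uqcrfs1 had a ratio of 1.06 (1.03 to 1.08), Uqcr11 of 1.05 (1.02 to 1.09) and Atp5b of 1.02 (1.02 to 1.03). The 3 below 1 were all membrane subunits of ATP synthase: Atp5k at 0.891 (0.850 to 0.934), Atp5l at 0.922 (0.893 to 0.952) and Atp5j2 at 0.967 (0.938 to 0.997). With totals scaled by TMM factors (edgeR's trimmed mean of log ratios), 9 lay above 1, against 16.3% of the same 3392 genes, and 4 below, against 16.5%. All these intervals are of the first quantification. The totals of the second were 42977135 and 38957328 estimated counts. Of these Uqcr11 held 7644 and 6874, a slightly smaller share in library 2, though its TPM there was 832 and 862. Uqcrfs1 held 17374 and 16653 counts and Atp5b 128282 and 119848, larger shares in library 2.

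With the copies added, the interval came to hold 1 for Atp5l and for Atp5g2, which has fewer than 1000 counts and is not among the 25. Atp5g2 had a ratio of 1.75 (1.49 to 2.05), and with its copies one of 0.997 (0.954 to 1.04). Atp5l with its copies had a ratio of 0.974 (0.947 to 1.00), whose interval holds 1. Cycs kept a ratio of 1.07 (1.05 to 1.10) with its copies. Tissue markers also differed between the libraries: the 5 atrial genes summed to 1169 and 1559 TPM and the 5 fat genes to 10.0 and 37.9 TPM, every one of them higher in library 2, while the 7 heart muscle genes summed to 28390 and 28196 TPM. Nppa led the atrial list at 617 and 842 TPM, and no fat marker was at 0. All 5 endothelial markers were lower in library 2, with sums of 164 and 151 TPM, as were all 5 fibroblast and all 4 mural markers. The part of these in the ratios of the members was not tested.

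**Figure D4:**
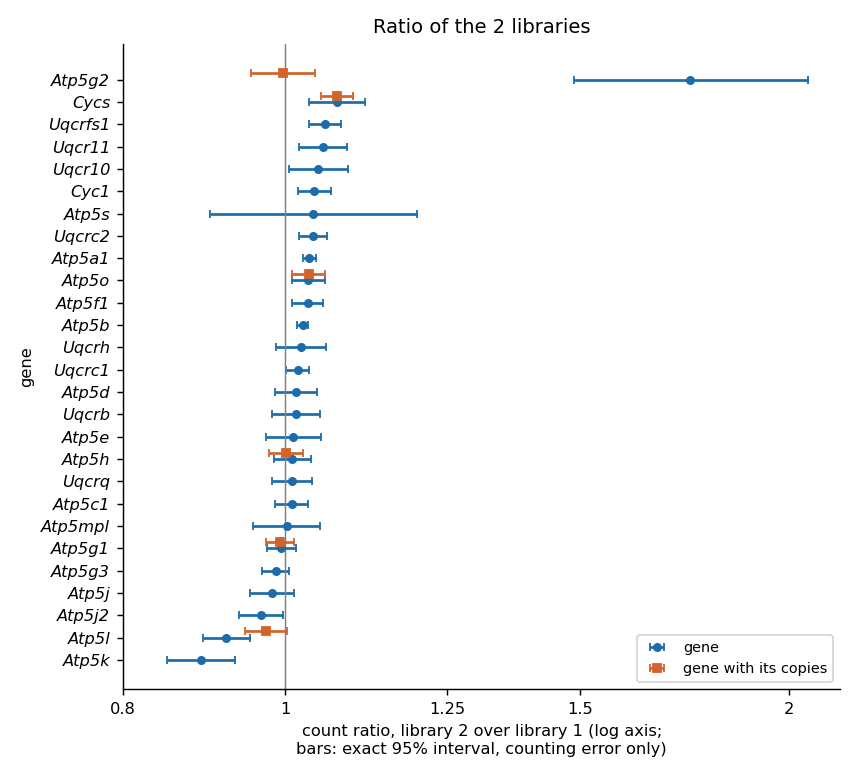
Count ratio of library 2 over library 1 on a log axis for 27 genes, with exact 95% intervals (counting error only); squares repeat the ratio with the copies added where copies held over 1% of the counts. Atp5g2 lies at 1.75 alone and at 0.997 with its copies, and all other genes lie between 0.891 and 1.07.

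The other complexes give the scale. The median gene of complex III was at 504 and 506 TPM (505 ± 1.58) and that of ATP synthase at 557 and 540 TPM (548 ± 11.9), a ratio of 0.922 ± 0.023. In the second quantification this ratio was 0.850 ± 0.075. The median of the 38 nuclear complex I genes was lower, at 269 ± 6.01 TPM, and that of the 4 complex II genes was 417 ± 6.81 TPM. The 18 complex IV genes had a median of 502 ± 2.26 TPM and the widest range, from 0 for Cox7b2 and Cox8c to 1436 TPM for Cox6b1. The place of complex IV over these 18 genes depended on the quantification. In the second its median was 801 ± 20.3 TPM, above those of ATP synthase (705 ± 14.1) and complex III (599 ± 40.9). In the first it was below both. The list holds genes with little signal in these libraries, and 15 of the 18 had a mean of 1 TPM or more. Cox8c and Cox7b2 at 0, Cox6b2 at 0.365 and Cox4i2 at 4.47 TPM lower the first median. Its place without them was not computed. No complex III gene had a mean under 371 TPM. Genes are not replicates, and no test was made of these medians.

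**Figure D5:**
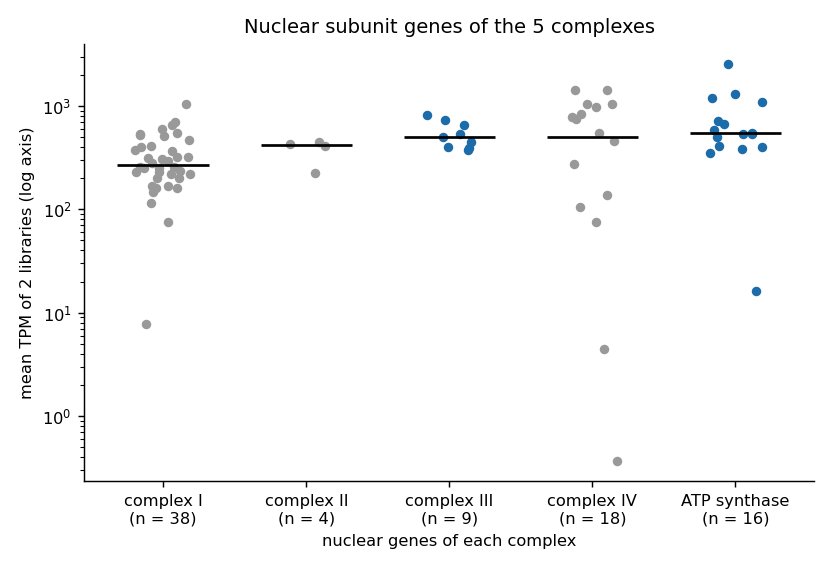
Mean TPM of 2 libraries on a log axis for each nuclear gene of the 5 complexes, with black lines at the median over genes; complex III and ATP synthase are in blue. The 9 complex III genes lie between 371 and 822 TPM, and Atp5g2 is the single low gene of ATP synthase at 16.3 TPM; Cox7b2 and Cox8c, listed at 0, are not drawn.

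Both complexes also contain subunits made inside the mitochondrion. The mitochondrial cytochrome b gene, mt-Cytb, had 22175 and 21221 TPM, 42.9 ± 1.47 times the median nuclear complex III gene, and 36.8 ± 3.09 times in the second quantification. The gene of subunit a, mt-Atp6, had 22484 and 24221 TPM, 42.6 ± 3.16 times the median ATP synthase gene, and 54.1 ± 0.58 times in the second quantification. The gene of subunit A6L, mt-Atp8, had 10991 and 10448 TPM in the first quantification but 198 and 14.4 TPM in the second. It overlaps mt-Atp6, and the value of mt-Atp8 cannot be used without a choice between the tables.

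Genes that assemble the complexes or work with them had lower medians than the subunits, though the groups overlapped in part. All 7 complex III assembly genes were above 1 TPM, with a median of 17.0 ± 0.80 TPM, and 2 were above 100 TPM in both libraries: Uqcc1 (111 ± 0.13) and Uqcc2 (107 ± 0.69), which act in making cytochrome b and were above Cycs (55.4) and Atp5g2 (16.3) in the first quantification. In the second, Uqcc1 (146 ± 9.28) and Uqcc2 (123 ± 4.05) were below Cycs (301) and Atp5g2 (169). The complex III assembly genes were below every complex III subunit gene in both quantifications. Uqcc3, a further factor for cytochrome b, had 20.3 ± 0.56 TPM, and Hccs, which attaches heme to cytochromes c and c1, had 17.0 ± 0.80 TPM. Of the 12 listed assembly factors, inhibitors and partners of ATP synthase, all were above 1 TPM and 4 were at 100 TPM or more in both libraries, with a median of 65.0 ± 0.98 TPM. The carriers that feed the enzyme led this list. Slc25a4, the heart and muscle ADP/ATP exchanger, had 1468 and 1454 TPM (1461 ± 10.2), above every nuclear gene of complex III and ATP synthase but Atp5b. Slc25a3, the phosphate carrier, had 830 TPM in both libraries. Slc25a5, the other ADP/ATP exchanger listed, had 117 ± 6.19 TPM, and Atpif1, which inhibits ATP hydrolysis, had 109 ± 6.97 TPM.

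Promoters were looked at because genes of the respiratory chain are textbook targets of nuclear respiratory factor 1 (NRF1), a factor that binds a GC-rich palindrome. The RefSeq table (GRCm38.p6, which has the coordinates of mm10) holds the 250 bases before and 50 after the start for 21 of the 27 symbols. Atp5c1, Atp5d and Atp5j have 2 windows each and so more chances of a match, and 20 of the 24 windows ended near the 5′ end of a GENCODE M21 transcript of the gene. The letters GCGCNTGCG of the NRF1 motif, or CGCANGCGC on the opposite strand, were found in 12 of these 21 genes (57.1%), against 9.68% of 17492 protein-coding genes with a promoter in the table. The 12 were Atp5c1, Atp5d, Atp5g2, Atp5g3, Atp5h, Atp5k, Atp5l, Atp5o, Cycs, Uqcr10, Uqcr11 and Uqcrc1. The 6 windows in which the motif lies wholly before the start are shown, in lower case on the gene's strand with the motif in capitals.
Atp5h: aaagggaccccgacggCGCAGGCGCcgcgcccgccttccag
Atp5l: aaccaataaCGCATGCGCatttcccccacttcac
Atp5c1: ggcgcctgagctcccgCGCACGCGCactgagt
Atp5k: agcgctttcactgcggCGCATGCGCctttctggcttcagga
Cycs: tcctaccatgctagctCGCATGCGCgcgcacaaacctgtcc
Atp5g2: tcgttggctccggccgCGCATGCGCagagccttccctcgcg
The windows are, in that order, chr11:115420035-115420075, chr9:44920959-44920992, chr2:10080433-10080464, chr5:108434424-108434464, chr6:50566606-50566646 and chr15:102671064-102671104, all on the minus strand. The motif in capitals begins 140 bases before the start in Atp5h, 241 in Atp5l, 16 in Atp5c1, 49 in Atp5k, 61 in Cycs and 41 in Atp5g2. Atp5k and Atp5g2 also hold an overlapping match that begins 50 and 42 bases before the start, with its first base left in lower case. The genes that hold it run from 16.3 TPM for Atp5g2 to 1094 TPM for Atp5g3.

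The other motifs were also searched on both strands. The ETS motif, CCGGAAG, was in 7 of the 21 genes (33.3%), against 12.9% of all. AANATGGCG, for YY1, was in 3 (14.3% against 3.64%), and these were Atp5b, Atp5j and Atp5j2. AAGGTCA, for the estrogen-related receptors, was in 4 (19.0% against 4.73%), namely Atp5e, Atp5g3, Atp5k and Atp5l. GGGCGG, for SP factors, was in 7 (33.3% against 49.2%), and the TATA box TATAAA was in Atp5l alone (4.76% against 14.8%). The NRF1 or the ETS letters were in 15 genes, against 20.6% of all. Atp5g1 and Uqcrfs1, at 1190 and 393 TPM, held none of the 6 motifs in this window. Such matches describe letters and are not evidence of binding, and the motifs can overlap each other.

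The genes are spread over the genome, with at most 4 on 1 chromosome (chromosome 11). Of the 27 symbols, 6 have a protein-coding gene that starts within 1000 bases on the opposite strand and runs the other way (22.2%), against 6.75% of nuclear protein-coding genes and 11.6% of those at a mean of 100 TPM or more. Uqcrq starts 192 bases from Gdf9, an oocyte growth factor gene that was at 0.11 and 0.06 TPM. Atp5c1 starts 83 bases from Kin, at 2.68 and 2.89 TPM, and Atp5h 166 bases from Kctd2, at 9.31 and 8.94 TPM. Uqcrh and Lrrc41 start 198 bases apart, and Uqcr10 and Zmat5 336 bases apart, with 7.53 ± 0.87 TPM for Lrrc41 and 8.38 ± 0.049 TPM for Zmat5. In these 5 pairs the member was the higher gene in both libraries.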

How the data were processed

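Total RNA-seq of heart was analysed in 2 libraries, made from 300 ng of RNA with spike-ins after ribosomal reduction, per the labels. Reads were mapped to mm10 with GENCODE M21, per the deposited readme, with the aligner and quantifier not given in the sources used here. The gene and transcript tables in the layout of RSEM (first quantification) hold expected counts, per the file headers, which divide shared reads between entries. The authors scaled the deposited TPM by effective length, and the deposited FPKM served only as an alternative. The deposited isoform percent matched shares recomputed from transcript TPM to 0.006 points for genes at 100 TPM or more. The deposited transcript tables in the layout of kallisto (second quantification) hold estimated counts and TPM, which were summed per gene. The first quantification has effective lengths 100 bases below length, so TPM of short transcripts depends on this step.

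Here, means and SDs over libraries, shares, ratios and count intervals were computed, with a pseudocount of 1 on the log2 scale. The 2-fold rule took genes at a mean of 1 TPM with a count of at least 10. The interval step was tested on simulated data. Expected counts were rounded for intervals and for edgeR 4.0.16 (R 4.3.3, TMM factors only). Copies were found with BLAST 2.17.0 among M21 transcripts. Exact stretches of 100 bases were counted in the leading coding transcript of each gene. CAST alleles were not analysed here. Names and coordinates came from M21, and promoters from RefSeq; members with older symbols were matched through RefSeq synonyms. Python 3.11.15, pandas 2.3.3 and Biopython 1.88 were used. Every member is named, list genes were those with the highest mean TPM (up to 4 per list), and copies, transcripts and neighbours were named after their values were seen. Members and lists were chosen with earlier results of these data known. With 1 group no comparison of conditions could be made, and no test was run. Some neighbour values are not reported here.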

Additional observations from a re-analysis of the deposited data

How the results depend on the processing

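The design had 1 group and 2 libraries, so conditions were not compared. No paired analysis was possible because there was no second group. The share of the members in nuclear protein-coding TPM, 5.11%, was 5.48% in the second quantification and 2.37% on expected counts, and 5.10% to 5.12% with either library left out. The ratio of the complex III median to the ATP synthase median, 0.922, was 0.850 in the second quantification, 0.947 on expected counts and 0.829 on protein-coding transcripts only, with 0.906 to 0.938 when a library was left out, and stayed under 1 in each of these. The share of Atp5g1 among the c subunit genes, 51.7%, was 44.4% in the second quantification, 46.9% on expected counts, 51.8% on protein-coding transcripts and 43.8% with copies added. The share of Atp5g2, 0.709%, was 7.63% in the second quantification and 8.67% with copies added, and 0.516% to 0.903% with a library left out. The share of Atp5g3, 47.6%, was 47.9% in the second quantification and 52.3% on expected counts. The cause of these shifts was not tested. FPKM moved none of these 5 values by more than the SD between libraries. The median log2 library ratio stayed between 0.01 and 0.05 under the 6 alternatives run, and no member passed 2-fold under the 5 alternatives of that rule. Over all nuclear protein-coding genes that count was 26, and 40 in the second quantification and 76 with a pseudocount of 0.1. Members at 100 TPM or more numbered 24 and 26, and genes led by a coding transcript 25 and 24, in the first and second quantification. Atp5g2, Atp5s and the second Atp5o entry had the fewest counts in the first quantification, so counting error limits their levels the most. The sum with copies was chosen after seeing the data.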
